A study of Mus musculus with 6 samples.

Results

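Fetal hearts of ICR mice, a wild-type outbred stock, were sequenced at 2 stages of late gestation, embryonic days 16.5 (E16.5) and 18.5 (E18.5). Each stage has 3 libraries, which the series calls biological replicates. The stages share genotype, stock and tissue, and the labels list no treatment. The sources used here do not say whether hearts were pooled in a library or which litters they came from. The results concern 10 genes of the epicardium and of mesothelium, chosen by gene name from 31529 genes in the deposited table. They are the keratins Krt19, Krt7, Krt8 and Krt18, mesothelin (Msln), the uroplakins Upk1b and Upk3b, Lrrn4, and the transcription factors Wt1 and Tcf21. All 10 passed the filter on low counts that left 19959 genes in the test.

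The epicardium is the single layer of mesothelium that covers the heart. It arises from the proepicardium, spreads over the myocardium, and releases cells that invade the heart wall and give rise to fibroblasts and to mural cells of the coronary vessels. Cells that stay on the surface keep an epithelial form, with filaments of simple keratins and surface proteins shared with the mesothelium of pleura and peritoneum. Keratin filaments are built from pairs of 1 type I chain, here Krt18 or Krt19, and 1 type II chain, here Krt7 or Krt8. Wt1 and Tcf21 are nuclear factors of the epicardium, of which Tcf21 is also kept by cardiac fibroblasts and Wt1 is also found in some endothelial cells.

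From E16.5 to E18.5, Krt19 rose 2.35-fold and was the 1 of 10 members called after adjustment over all genes (edgeR quasi-likelihood test, Benjamini-Hochberg). The log2 changes were between 0.59 and 1.58 for Lrrn4, Msln, Upk1b, Krt8, Krt7 and Upk3b, none of which passed, and were 0.26 for Tcf21, 0.24 for Wt1 and 0.09 for Krt18. Of all genes tested, 0.15% were called in either direction and 0.0952% were called higher at E18.5. All 10 log2 changes were above 0, against 49.8% of all genes. The median log2 change was 0.77 over the 10 members and -0.002 over all genes tested. At an unadjusted p under 0.05, 6 of 10 members were higher at E18.5, against 4.83% of all genes (9.53% in either direction). Every E18.5 library lay above every E16.5 library in 9 of 10 members, against 8.45% of all genes. The members were picked with earlier results of these libraries known, so none of these shares is independent evidence. In whole hearts, more epicardial cells and more RNA per epicardial cell cannot be told apart. Lung epithelial markers were also present in every library (110 to 194 CPM in sum), and a part of neighbouring tissue in the levels of the members was not tested.

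**Figure D1:**
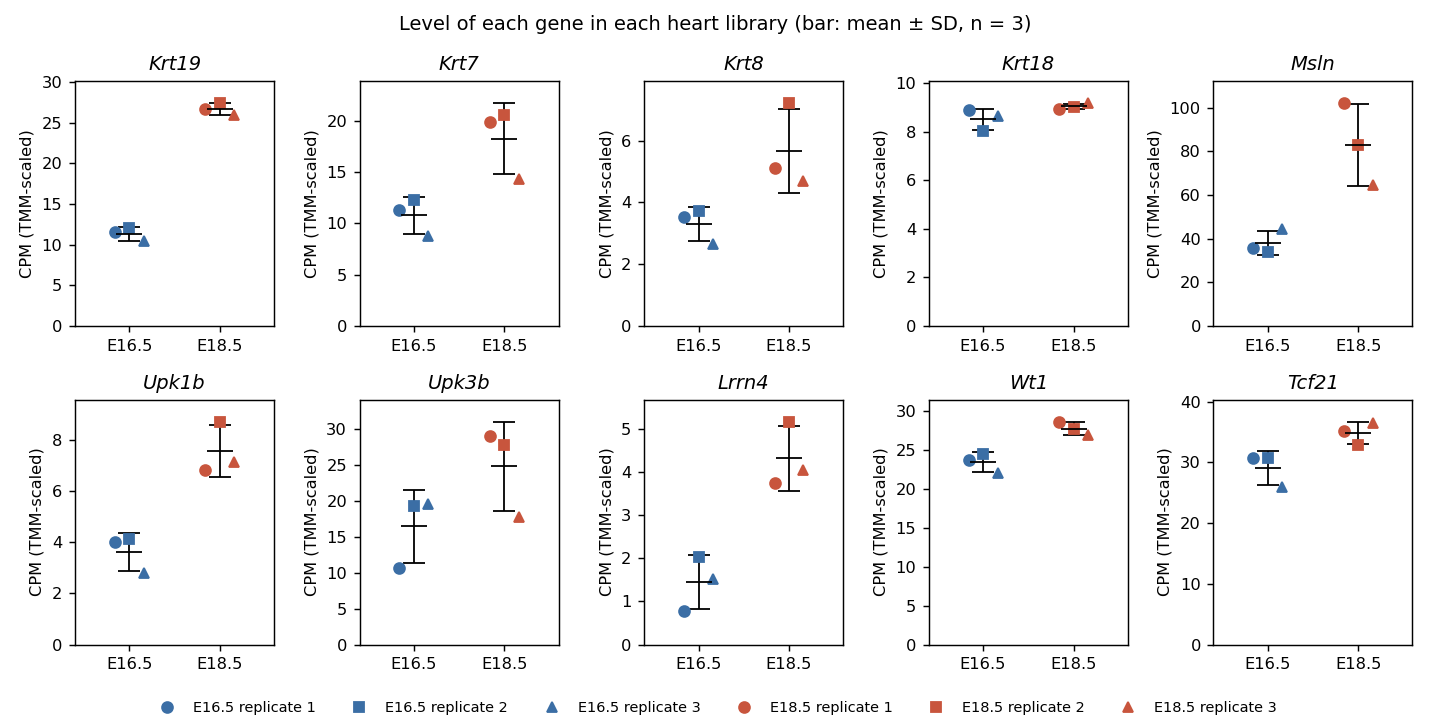
Level of each of the 10 genes in each library, in TMM-scaled CPM (counts divided by library size after trimmed mean of M-values scaling), on axes that start at 0; points are libraries and bars are means ± SD of 3 libraries. Krt19 is tight within each stage and separate between stages (11.4 and 26.7 CPM), whereas Krt18 is nearly level (8.51 and 9.04 CPM) and Upk3b overlaps between stages.

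Levels below are CPM after TMM scaling unless FPKM is named. FPKM, which scales fragments by library size and transcript length, is used to compare genes with each other. It carries no TMM scaling. TMM factors ran from 0.8123 in E16.5 replicate 1 to 1.211 in E16.5 replicate 2, so the latter stands higher against the other libraries in FPKM than in CPM. Total estimated counts ran from 61443414 to 77237333 per library, and genes of the mitochondrial chromosome took 19.9% to 41.4% of them. The lowest mitochondrial share was that of E16.5 replicate 2 and the highest that of E16.5 replicate 1. With that share as a term in the fit, Krt19 and Msln were the 2 members called, against 0.646% of all genes called higher, at log2 changes of 1.22 (adjusted p = 0.00663) and 1.18 (adjusted p = 0.0214).

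Of the type I keratins, Krt19 rose and Krt18 did not pass. Krt19 (ENSMUSG00000020911, GRCm38 chromosome 11, 100140810 to 100148665, minus strand) is the smallest keratin and lacks the tail domain of the others. Per library, in the order of replicates 1, 2 and 3 that is kept throughout, it was at 11.6, 12.0 and 10.4 CPM at E16.5 against 26.7, 27.4 and 26.0 CPM at E18.5. The 3 E18.5 libraries lay close together and far above the E16.5 libraries, with means of 11.4 ± 0.824 and 26.7 ± 0.666 CPM (SD, n = 3). The log2 change was 1.23 ± 0.14 (SE), with an adjusted p of 0.0219 by edgeR. Its size depended little on any one library, with 1.16 to 1.28 when each was left out. The call itself was lost without E16.5 replicate 1 (adjusted p = 0.0701), E16.5 replicate 3 (0.123), E18.5 replicate 1 (0.107), E18.5 replicate 2 (0.152) or E18.5 replicate 3 (0.145), and kept without E16.5 replicate 2 (0.0167).

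Krt18 (ENSMUSG00000023043, chromosome 15, 102028180 to 102032027, plus strand) is the usual partner of Krt8 in simple epithelia. Its values were 8.87, 8.03 and 8.62 CPM at E16.5 against 8.94, 9.01 and 9.16 CPM at E18.5. The lowest E18.5 library stood just above the highest E16.5 library in CPM, and the log2 change was 0.09 ± 0.15 (adjusted p = 0.871, edgeR). In FPKM, without TMM scaling, the stages overlapped, with 6.27 in E16.5 replicate 2 against 5.32 in E18.5 replicate 1. A pseudogene with 90.5% identity to Krt18 over 1267 bases, Gm5200, was not analysed here.

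The type II keratins were both higher at E18.5 without passing. Krt7 (ENSMUSG00000023039, chromosome 15, 101411043 to 101430313, plus strand), a keratin of simple and ductal epithelia and of mesothelium, was at 11.3, 12.3 and 8.77 CPM at E16.5 against 19.9, 20.6 and 14.3 CPM at E18.5. The third replicate was the lowest of its stage both times, and the stages did not overlap. Its log2 change was 0.76 ± 0.20, a fold of 1.70 with an adjusted p of 0.278. An overlapping gene on the other strand, Gm671, held 0.894% of the counts of Krt7. Krt8 (ENSMUSG00000049382, chromosome 15, 101996698 to 102004482, minus strand), among the earliest keratins made in the embryo, was at 3.52, 3.71 and 2.67 CPM at E16.5 against 5.10, 7.21 and 4.70 CPM at E18.5. E18.5 replicate 2 stood above the other E18.5 libraries, and the log2 change was 0.78 ± 0.26 (adjusted p = 0.383). The processed copy Krt8-ps, with 98.6% identity over 941 bases, held 0.535% of the counts of Krt8, and the antisense gene Gm36026 was not analysed here.

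Krt8 and Krt18 are neighbours on chromosome 15, with 23698 bases between their annotated starts, and are transcribed away from each other. Promoter sequences of RefSeq (GRCm38.p6) were found for 6 of the 10 members by symbol. Those of Krt8 and Krt18 are shown because these neighbours differed in log2 change, that of Krt7 because it is the other type II chain, and that of Lrrn4 because its log2 change was the highest of the 10 by edgeR. The Krt7 start in RefSeq lies inside the gene as GENCODE M21 draws it. Each sequence is on the strand of its gene and comes from the 250 bases before the RefSeq start, leaving out bases that GENCODE M21 annotates as untranslated region. Capitals mark a match to a motif searched.
Krt8, chr15:102004483-102004592: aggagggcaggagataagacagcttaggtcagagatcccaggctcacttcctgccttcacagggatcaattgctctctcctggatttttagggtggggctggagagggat
Krt18, chr15:102027966-102028179: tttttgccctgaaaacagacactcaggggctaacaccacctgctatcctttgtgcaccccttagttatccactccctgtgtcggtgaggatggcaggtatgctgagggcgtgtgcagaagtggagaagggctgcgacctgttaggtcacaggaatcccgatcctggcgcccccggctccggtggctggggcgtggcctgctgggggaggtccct
Krt7, chr15:101412153-101412401: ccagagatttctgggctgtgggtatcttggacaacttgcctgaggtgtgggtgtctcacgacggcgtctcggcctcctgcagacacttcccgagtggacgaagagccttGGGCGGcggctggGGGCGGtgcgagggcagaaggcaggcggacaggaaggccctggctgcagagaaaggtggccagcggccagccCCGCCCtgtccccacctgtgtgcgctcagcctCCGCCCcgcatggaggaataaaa
Lrrn4, chr2:132880892-132881112: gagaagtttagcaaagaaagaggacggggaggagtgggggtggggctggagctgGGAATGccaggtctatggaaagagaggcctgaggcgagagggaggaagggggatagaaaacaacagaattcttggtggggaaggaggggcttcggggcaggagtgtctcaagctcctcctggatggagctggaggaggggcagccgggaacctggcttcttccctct

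A set of 6 motifs was searched on both strands of the full 250 bases, with no overlap among the matches found in members. The GC box GGGCGG matched 4 times in the Krt7 window, at -141, -128, -56 and -24 from the start, and in 32.7% of 32851 mouse promoters. The TEAD element GGAATG, a site of the Hippo pathway factors, matched once in Lrrn4 (-196) and once in Upk3b (-241), and in 12.6% of promoters. The TATA box TATAAA (12.4% of promoters), the E-box CAGCTG (13.0%), the AP-1 element TGANTCA (6.75%) and the WT1 element GCGTGGGNG (1.65%) matched in none of the 6 windows, including that of Tcf21. The Krt7 window had a GC content of 65.9%, against a median of 52.4% over all promoters. A match here describes letters in a window and not binding.

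Keratin composition was compared per length, as shares that were not tested. Of the summed FPKM of all 28 keratin genes in the table, Krt19 took 28.3%, 33.1% and 31.6% at E16.5 against 44.6%, 44.3% and 45.9% at E18.5. Krt18 took 27.9%, 28.5% and 33.7% at E16.5 against 19.3%, 18.8% and 20.9% at E18.5. The stages did not overlap for either gene, and the order of these type I chains went from near parity to Krt19 above Krt18 in every E18.5 library. Krt7 held 7.69% ± 1.03 and 8.05% ± 1.21 (SD, n = 3) at E16.5 and E18.5, and Krt8 held 8.47% ± 1.05 and 9.0% ± 1.77. As shares, a higher Krt19 lowers the share of Krt18 even where the level of Krt18 stays the same. The size of the fall in the Krt18 share rests on the unit, at -10.4 percentage points in FPKM and -5.29 in CPM, an alternative chosen after seeing the data.

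**Figure D2:**
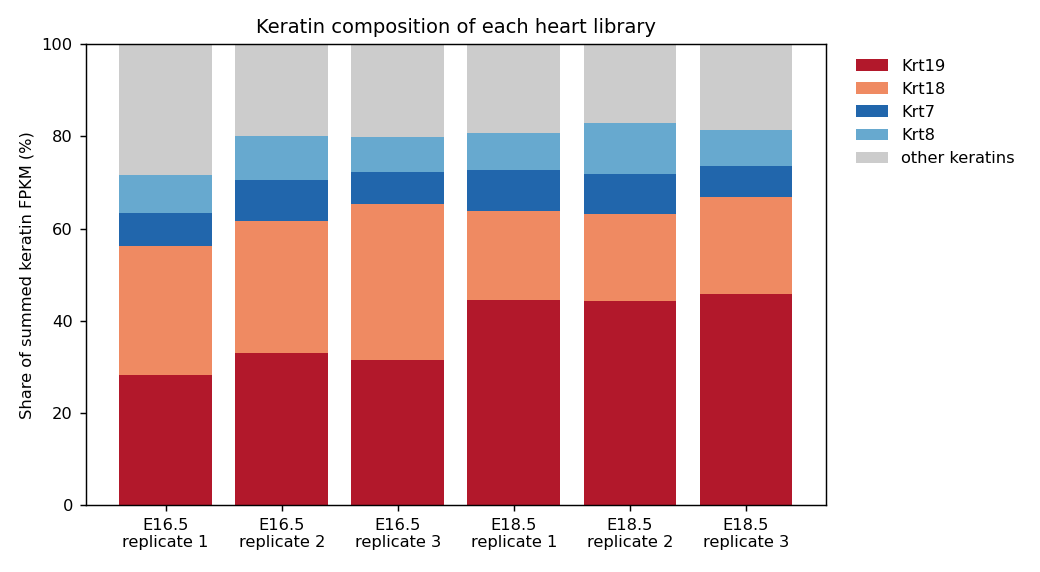
Share of the summed keratin FPKM held by each member and by all other keratins, as stacked bars for each library on an axis in percent. Krt19 goes from 31.0% ± 2.47 (SD, n = 3) at E16.5 to 44.9% ± 0.875 at E18.5, and Krt18 from 30.1% ± 3.19 to 19.7% ± 1.06.

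The ratio of type II to type I chains in FPKM, (Krt7 + Krt8)/(Krt18 + Krt19), was 0.273, 0.301 and 0.223 at E16.5 against 0.263, 0.314 and 0.217 at E18.5. On the log2 scale it went from -1.92 ± 0.22 to -1.93 ± 0.26 (SD, n = 3), a difference of -0.01 (exact permutation test, two-sided, p = 1.0). Leaving out 1 library gave differences of either sign, from -0.14 to 0.12. With 3 libraries against 3, the smallest p this test can give is 0.10.

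Among the 24 keratins that are not members, 8 were tested and none was called by limma or by edgeR with stage as the only term. DESeq2 called 1, Krt14. By edgeR, 2 had an unadjusted p under 0.05 with a higher level at E18.5 and 1 with a lower level. Krt14, a keratin of basal cells in stratified epithelia, was at 1.32, 0.357 and 0.277 CPM at E16.5 against 4.70, 3.89 and 2.77 CPM at E18.5. The stages did not overlap, and the log2 change of 2.54 ± 0.59 failed the correction (adjusted p = 0.214). Krt14 was called by edgeR with the mitochondrial share as a term (2.97, adjusted p = 0.0363) and without E16.5 replicate 1 (3.56, adjusted p = 0.0498). Krt222 had a log2 change of 0.75 (adjusted p = 0.466), Krt1 one of -2.37 (adjusted p = 0.496) and Krt20 one of 2.42 (adjusted p = 0.693). A total of 20 of the 24 were under 1 CPM in every library, among them Krt5, the type II partner of Krt14 in basal cells.

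Mesothelin and the uroplakins are membrane proteins of the mesothelial surface. Msln (ENSMUSG00000063011, chromosome 17, 25748613 to 25754378, minus strand), a protein anchored in the membrane by a lipid, was at 35.9, 33.7 and 44.4 CPM at E16.5 against 102, 82.8 and 64.4 CPM at E18.5. All E18.5 libraries were above all E16.5 libraries, with a wider spread at E18.5 (83.0 ± 18.8 CPM) than at E16.5 (38.0 ± 5.68 CPM). The fold was 2.18 and the log2 change 1.13 ± 0.19, with an adjusted p of 0.119 by edgeR. DESeq2 called it, with an adjusted p of 4.77e-05, among 5 members it called (Krt19, Krt7, Msln, Upk1b and Lrrn4), against 1.24% of all genes called higher.

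Upk1b (ENSMUSG00000049436, chromosome 16, 38773184 to 38800328, minus strand), a tetraspanin first known from the plaques of bladder urothelium, was at 4.0, 4.12 and 2.78 CPM at E16.5 against 6.84, 8.71 and 7.14 CPM at E18.5. No E18.5 library reached down to the E16.5 range, and the log2 change was 1.06 ± 0.23 (adjusted p = 0.185). Upk3b (ENSMUSG00000042985, chromosome 5, 136038496 to 136046487, plus strand), a single-pass uroplakin and a marker of mesothelium, was at 10.6, 19.3 and 19.5 CPM at E16.5 against 29.0, 27.7 and 17.7 CPM at E18.5. In CPM it was the 1 member whose stages overlapped, since E18.5 replicate 3 lay below E16.5 replicates 2 and 3. The log2 change was 0.59 ± 0.27 (adjusted p = 0.545), and 0.34 without E16.5 replicate 1, the lowest library. Of the other uroplakins, Upk1a was tested and had a log2 change of 0.21 (adjusted p = 0.799), and Upk2 was under 1 CPM in every library.

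Lrrn4 (ENSMUSG00000043110, chromosome 2, 132868305 to 132880891, minus strand), a membrane protein with leucine-rich repeats that marks mesothelial cells, had the lowest level of the 10 and, by edgeR, the highest log2 change. It held 49, 164 and 105 estimated counts at E16.5 against 250, 364 and 272 at E18.5. As CPM these were 0.781, 2.02 and 1.53 at E16.5 against 3.75, 5.17 and 4.05 at E18.5. E16.5 replicate 1 stood well below the rest, and every E18.5 library was above every E16.5 library. The log2 change was 1.58 ± 0.37, a fold of 2.98 with an adjusted p of 0.216 by edgeR. Without E16.5 replicate 1 it was 1.27 (adjusted p = 0.380), and without E16.5 replicate 2 it was 1.9 (adjusted p = 0.0516). With limma on log2(FPKM + 1) it was 0.64, below Krt19 (1.19), Msln (1.15) and Upk1b (0.81), on a scale that shrinks changes of genes at low levels. The log2 change of Lrrn4 was again the highest of the 10 with DESeq2 (1.57) and with limma on log2(FPKM + 0.1) (1.48). Of 5 relatives of Lrrn4 and Msln tested, none was called by edgeR, DESeq2 or limma and 0 had an unadjusted p under 0.05 by edgeR. Log2 changes were -0.86 for Lrrn3, 0.75 for Lrrn4cl, -0.64 for Lrrn1 and 0.21 for Lrrn2.

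The transcription factors differed least from stage to stage after Krt18. Wt1 (ENSMUSG00000016458, chromosome 2, 105126529 to 105173616, plus strand), a zinc finger factor needed for a normal epicardium, was at 23.7, 24.5 and 22.0 CPM at E16.5 against 28.6, 27.7 and 26.9 CPM at E18.5. Tcf21 (ENSMUSG00000045680, chromosome 10, 22817281 to 22820174, minus strand), a basic helix-loop-helix factor needed for cardiac fibroblasts to form, was at 30.7, 30.8 and 25.9 CPM at E16.5 against 35.2, 32.9 and 36.5 CPM at E18.5. Neither gene overlapped between stages in CPM, and the steps were small. In FPKM, without TMM scaling, both overlapped. E16.5 replicate 2 was at 4.44 for Wt1 and 14.7 for Tcf21, against 3.95 and 12.8 in E18.5 replicate 1. The log2 changes were 0.24 ± 0.12 for Wt1 (adjusted p = 0.565) and 0.26 ± 0.13 for Tcf21 (adjusted p = 0.562). The antisense gene Gm10824, which overlaps Tcf21, held 3.41% of its counts.

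**Figure D3:**
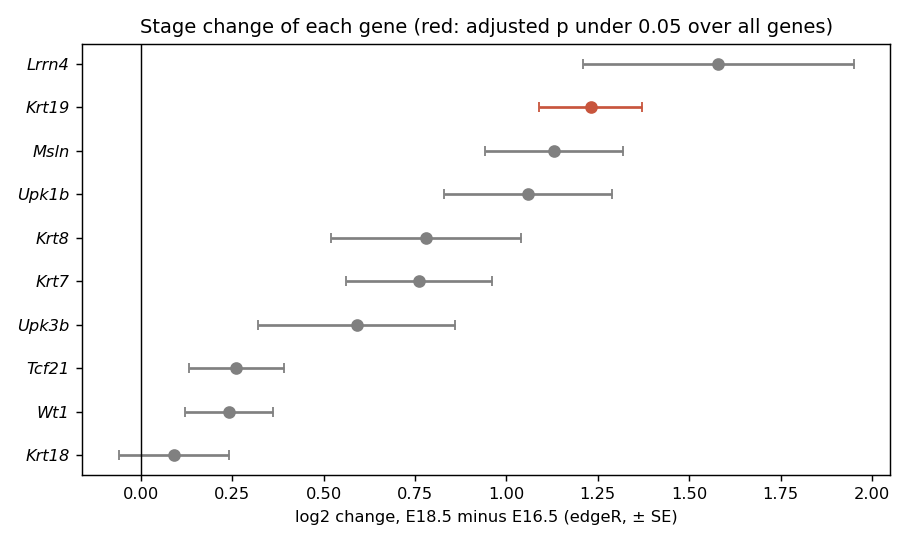
Log2 change from E16.5 to E18.5 of each gene as edgeR fitted it, with bars of 1 standard error (SE), ordered by size; red marks an adjusted p under 0.05 over all genes. Krt19 at 1.23 is the 1 gene in red, Lrrn4 has the highest change at 1.58 with the widest bar (0.37), and Tcf21, Wt1 and Krt18 lie at 0.26 or below.

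The level of each member was set against Wt1 in the same library, which removes the library scaling. Wt1 is shared by all these ratios, so they are descriptions and were not tested. The Krt19 to Wt1 ratio in FPKM was 1.64, 1.64 and 1.59 at E16.5 against 3.11, 3.30 and 3.24 at E18.5. Within a stage the libraries were nearly identical, and between stages the log2 ratio went from 0.70 ± 0.02 to 1.69 ± 0.04 (SD, n = 3). The Tcf21 to Wt1 ratio was 3.43, 3.31 and 3.11 at E16.5 against 3.24, 3.14 and 3.59 at E18.5, with overlapping stages and a log2 difference of 0.02. Relative to Wt1, stages also did not overlap for Lrrn4 (log2 difference 1.43), Msln (0.86), Upk1b (0.83), Krt8 (0.53) and Krt7 (0.51). They overlapped for Upk3b (0.36, and 0.06 without E16.5 replicate 1) and for Krt18 (-0.16). The share of all genes whose ratio to Wt1 keeps the stages apart is not given here, so these separations have no background to be read against.

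**Figure D4:**
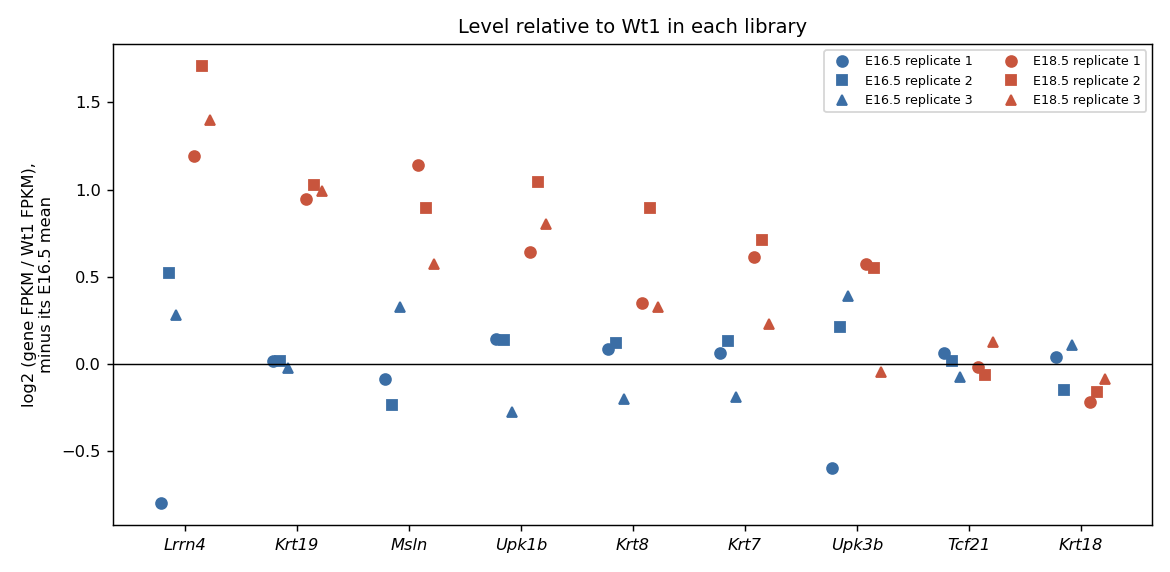
Log2 ratio of the FPKM of each gene to that of Wt1 in each library, drawn as the difference from the E16.5 mean of that gene, with symbols for replicates. Krt19 forms 2 tight groups 0.99 apart, and Tcf21 and Krt18 stay near 0 in both stages.

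Ordered per length in FPKM, Tcf21 (11.2 ± 3.04, SD, n = 3) and Msln (11 ± 2.09) were the most abundant members at E16.5, and their libraries overlapped. Below them came Krt19 (5.53 ± 1.51), Krt18 (5.29 ± 0.890), Upk3b (4.33 ± 1.98) and Wt1 (3.41 ± 0.898), each overlapping with the next. Upk1b (1.58 ± 0.568), Krt8 (1.53 ± 0.523) and Krt7 (1.39 ± 0.492) overlapped across libraries, and Lrrn4 (0.369 ± 0.229) was lowest. Within each E16.5 library, Krt18 was above Upk3b, and both Upk1b and Krt8 were above Krt7, while Upk1b and Krt8 changed order. At E18.5, Msln led at 25.6 ± 3.73 FPKM, above every library of Tcf21 (14.2 ± 1.51). Krt19 (13.8 ± 1.3) then overlapped with Tcf21 and stood above Upk3b (6.65 ± 1.39), which overlapped with Krt18 (6.02 ± 0.618). Wt1 (4.27 ± 0.278), Upk1b (3.47 ± 0.683), Krt8 (2.78 ± 0.778) and Krt7 (2.46 ± 0.425) followed, each overlapping with the next across libraries, and Lrrn4 was again lowest at 1.12 ± 0.264. Within each E18.5 library, Wt1 was above Upk1b and Upk1b above Krt8.

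Other genes of the epicardium and mesothelium, 14 in a list that excluded the members, had 9 log2 changes above 0 and 4 below among the 13 tested. Of these, none was called by edgeR, DESeq2 or limma. By edgeR, 2 were higher at E18.5 with an unadjusted p under 0.05 and no gene was lower at that p, and the median log2 change was 0.12. Anxa8, a calcium-dependent phospholipid-binding protein, had a log2 change of 1.28 ± 0.41 (adjusted p = 0.383) and the membrane glycoprotein Gpm6a one of 0.48 ± 0.20 (adjusted p = 0.502). The mucin Muc16, which binds mesothelin, was at 0.46 ± 0.23 (adjusted p = 0.562), and Aldh1a2, the retinoic acid-producing enzyme of the epicardium, at 0.49 ± 0.25 (adjusted p = 0.569). Tbx18, a T-box factor of the epicardium that septal myocardium and mural cells also express, gave -0.15, and Bnc1, a zinc finger factor of mesothelium, gave 0.12 (both named after their values were seen). The summed level of the list was 129 to 143 CPM at E16.5 and 128 to 153 CPM at E18.5, so the stages overlapped. Tbx18 held the most of this sum, at means of 56.1 and 50.5 CPM. Anxa8, Gpm6a, Muc16 and Dmkn were higher in every E18.5 library, as were 8.45% of all genes, and the other genes tested overlapped. Dmkn, named after its value was seen, had a log2 change of 2.0 (adjusted p = 0.587 by edgeR).

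Genes of epithelial junctions and identity were at low levels. None of the 6 tested was called by edgeR, DESeq2 or limma, with a median log2 change of -0.18 and 0 in either direction at an unadjusted p under 0.05 (edgeR). E-cadherin (Cdh1) was at 1.65 and 1.17 CPM at E16.5 and E18.5, and Epcam at 0.997 and 0.442 CPM (log2 change -1.17, adjusted p = 0.531). Cldn3 gave a log2 change of 0.43 and Grhl2 one of 0.30. Among other intermediate filaments and their linkers, 3 of 12 reached an unadjusted p under 0.05, each with the higher level at E18.5, and none was called by limma or by edgeR with stage as the only term. Both DESeq2 and edgeR with the mitochondrial share as a term called 2 of the 12, Ppl and Lmna, the latter fit at adjusted p of 0.0356 and 0.0378. Periplakin (Ppl), which links keratins to cell junctions, was at 6.44, 7.24 and 6.96 CPM at E16.5 against 16.2, 13.1 and 12.3 CPM at E18.5. Its stages did not overlap, and its log2 change was 1.01 ± 0.17 (adjusted p = 0.113, and 0.0429 without E16.5 replicate 2). The lamins Lmna (0.78) and Lmnb2 (0.43) and envoplakin Evpl (0.62) had adjusted p from 0.185 to 0.553 by edgeR. The value of Evpl rests on E18.5 replicate 1, at 12.2 CPM against 6.21 and 6.0 CPM in the other E18.5 libraries, and was 0.19 without it. Factors of the transition from epithelium to mesenchyme had 1 of 8 genes under an unadjusted p of 0.05, Twist1, with the lower level at E18.5 (-0.62, adjusted p = 0.339). Tgfb3 was at 0.42, Snai1 at 0.55 and Zeb2 at -0.24, and none of the 8 was called by edgeR, DESeq2 or limma.

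Markers of other cell types were read beside these values, and their part in the results was not tested. Fibroblast markers had a median log2 change of 0.46, with 4 of 10 higher at an unadjusted p under 0.05 and none called by edgeR, DESeq2 or limma. Their summed level was 2570 to 4060 CPM at E16.5 and 4150 to 5410 CPM at E18.5, without overlap. For smooth muscle and pericytes the median was 0.37, 3 of 6 markers were higher at that p, none was called by edgeR, DESeq2 or limma, and levels summed to 564 to 642 and 782 to 849 CPM. Endothelial markers (594 to 721 and 693 to 759 CPM) and cardiomyocyte markers (27900 to 36000 and 33400 to 40000 CPM) overlapped between stages, at medians of 0.17 and 0.26. None of these was called by edgeR with stage as the only term, which had 1 of 8 endothelial and 2 of 7 cardiomyocyte markers higher at that p, and DESeq2 called 2 cardiomyocyte markers, Nppa and Ryr2. With the mitochondrial share as a term, edgeR called 2, Nppa and Actc1. Examples chosen after their values were seen are Col1a1 (0.79), Dpt (0.63) and Myh11 (1.79), with adjusted p of 0.402, 0.329 and 0.278 by edgeR. Other markers of the same lists were near 0 or lower, among them Pdgfra (0.06), Fn1 (-0.15), Pdgfrb (0.06) and Kcnj8 (-0.21). Log2 changes were above 0 for 9 fibroblast markers and below for 1, and for smooth muscle and pericytes for 5 and 1. Col3a1, Postn, Col1a1 and Col1a2 held the most CPM of the fibroblast sum.

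Epithelia of neighbouring organs also use simple keratins. Lung epithelial markers were present in every library, with all 9 genes tested, none called by edgeR, DESeq2 or limma, 0 at an unadjusted p under 0.05 by edgeR, a median log2 change of -0.02 and a summed level of 118 to 194 CPM at E16.5 and 110 to 187 CPM at E18.5. The surfactant protein gene Sftpc was at 59.7, 45.8 and 35.8 CPM at E16.5 against 33.6, 33.5 and 64.9 CPM at E18.5, and the club cell gene Scgb1a1 at 74.1, 36.8 and 39.9 and at 39.1, 37.8 and 60.4 CPM (both named after their values were seen). The lung list was highest in E16.5 replicate 1 and E18.5 replicate 3. Whether tissue of neighbouring organs added to the levels of the members was not tested. Markers of stratified epithelium went from 0.554 to 2.26 CPM at E16.5 to 3.94 to 5.93 CPM at E18.5, and Krt5, Krt15, Krt4, Krt13 and Trp63 were under 1 CPM throughout. Thymus markers summed to 0.973 CPM or less in every library. Liver markers overlapped between stages, at 41.1 to 92.2 and 36.3 to 112 CPM.

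**Figure D5:**
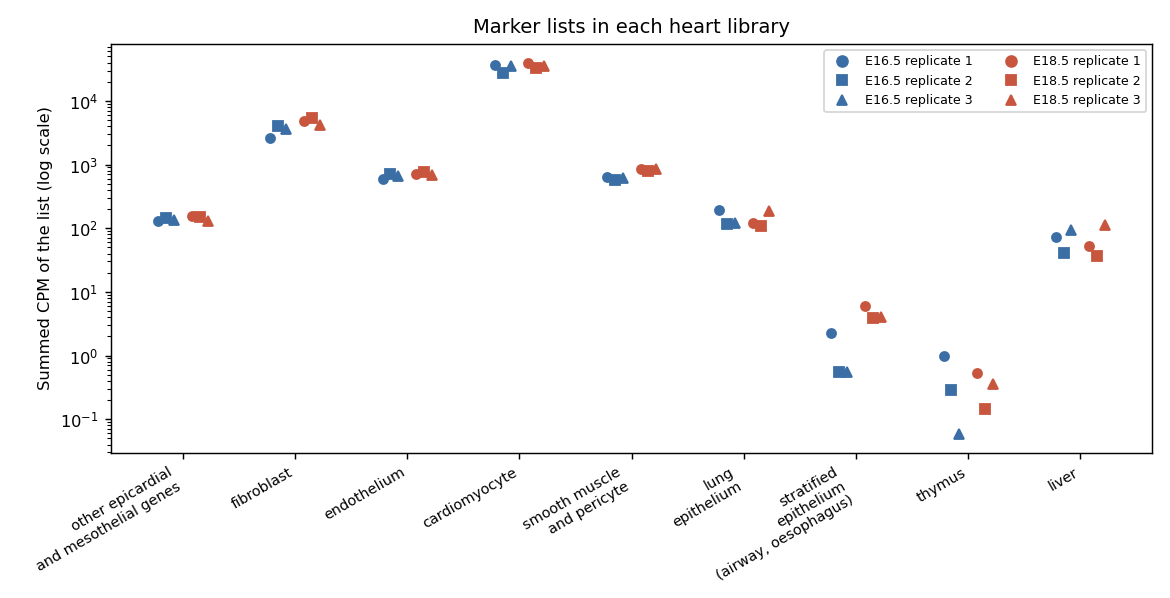
Summed CPM of each marker list in each library, on a log axis, with symbols for replicates. Fibroblast, smooth muscle and pericyte, and stratified epithelium lists are higher in every E18.5 library, while the lung list spans 110 to 194 CPM with the stages mixed. In the stratified epithelium list, Krt14 is the only gene above 1 CPM in any library.

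The genes most like the members in pattern were sought among 5549 tested genes with named symbols whose stage mean reached 5 FPKM in either stage, by the root mean square difference between standardised log2 CPM profiles over the 6 libraries. Nearest to the mean profile of the members were Casq1 (0.138), Fem1a (0.141), Art3 (0.149), Tgm2 (0.162), Rpl26 (0.191) and Crhr2 (0.193). None of these is an epicardial marker in the lists used, but few such markers could be found. The members were left out of the search. Of the other epicardial and mesothelial genes tested, only Tbx18, Aldh1a2 and Rspo1 reached 5 FPKM. Of the members themselves, Krt19 was nearest (0.135), followed by Upk1b (0.258) and Wt1 (0.259), and Krt18 was farthest (0.879). Each member enters that mean profile, so its nearness is partly built in. Such a profile mainly follows the step between the stages, and these genes differ in size of change. Art3 had a log2 change of 1.19 (adjusted p = 0.0346), Crhr2 one of 1.80 (0.00338) and Rpl26, which has near-identical copies and is uncertain, one of 2.77 (0.000847). The call of Art3 was lost without E16.5 replicate 1 (adjusted p = 0.114), E16.5 replicate 3 (0.166), E18.5 replicate 1 (0.173), E18.5 replicate 2 (0.275) or E18.5 replicate 3 (0.161), and in limma (0.31 and 0.32). Casq1 (0.77, adjusted p = 0.111), Tgm2 (0.34, 0.444) and Fem1a (0.29, 0.474) did not pass in edgeR with stage as the only term. Casq1 was called by DESeq2 (0.000142), by edgeR with the mitochondrial share as a term (0.0256) and by edgeR without E16.5 replicate 2 (0.038).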

How the data were processed

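Messenger RNA selected on oligo(dT) from 6 heart samples was made into strand-marking, paired-end libraries with adapters carrying unique molecular identifiers, per the labels' protocols. The authors deposited estimated counts per gene, written as whole numbers, and FPKM values for each library, per the file headers. Per the submitters' processing notes the tools were StringTie 1.3.4d, UMI-tools, cutadapt 1.9 and HISAT2 2.0.4 and the build mm9, with no roles given. Use of the identifiers and of strand in counting is not stated, so antisense reads may be included. Of 29874 identifiers shared with GENCODE M21 (GRCm38), 611 had the coordinates of the table, so printed positions are those of GENCODE M21, by identifier.

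The main test was edgeR 4.0.16 (R 4.3.3; glmQLFit, glmQLFTest, filterByExpr, TMM, stage as the only term, two-sided) over 19959 genes, with calls at a Benjamini-Hochberg adjusted p under 0.05. An SE is the size of the log2 change over the square root of the F statistic. The common biological coefficient of variation was 34.3%. Alternatives were DESeq2 1.42.0, limma 3.58.1 on log2(FPKM + 1) or log2(FPKM + 0.1), other scalings, filters and terms, and each library left out. Near-identical copies were searched with BLAST 2.17.0 (at least 90% identity over 200 bases), and the exact permutation test used SciPy 1.17.1.

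Members and lists were chosen with earlier results of these data known. All members are named, with up to 4 genes of each list by smallest p and the 6 genes nearest in pattern, and exceptions are marked.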

Additional observations from a re-analysis of the deposited data

How the results depend on the processing

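The log2 changes of the 10 genes kept their sign in all 140 refits (14 alternatives for each gene). For the 9 members whose stages did not overlap in CPM, leaving out 1 library could hardly change the sign. The other alternatives refit the same 6 libraries, so the refits are not independent. The number of members called, 1 in the fit reported, was 5 with DESeq2 (Krt19, Krt7, Msln, Upk1b and Lrrn4, against 1.24% of all genes called higher), 2 with the mitochondrial share as a term (Krt19 and Msln, against 0.646%), 0 with limma on log2(FPKM + 1) and 0 with limma on log2(FPKM + 0.1). Adjusted p for Krt19 in limma was 0.207 and 0.192, in fits on FPKM without TMM scaling. Leaving out 1 library gave 0 to 1 called. The median log2 change was 0.58 with limma on log2(FPKM + 1), 0.76 in the replicate block, and 0.62 to 0.90 with 1 library left out. With DESeq2 size factors, no filter, mitochondrial counts left out or the replicate block, 1 member, Krt19, was called. With the block its adjusted p was 0.0267. Deviations of libraries with the same number correlated at 0.102, 0.185 and -0.0663, and those with unlike numbers at -0.262 to 0.164. The labels state no pairing, and correlations over 3 libraries a stage cannot decide whether the numbers pair the samples. The type II to type I ratio difference ranged from -0.14 to 0.12 with 1 library left out, so it has no fixed sign. In CPM in place of FPKM, chosen after seeing the data, the share of Krt19 differed by 11.9 percentage points in place of 13.9, and that of Krt18 by -5.29 in place of -10.4. The log2 change of Scgb1a1 was 0.01 with limma at either pseudocount, 0.03 with the mitochondrial share as a term and -0.39 to 0.24 with 1 library left out, where that of Sftpc was -0.49 to 0.1. The cause of these differences was not tested. Over all genes, 30 were called in the fit reported, 408 with DESeq2, 184 with the mitochondrial share as a term, 10 and 18 with limma at the pseudocounts 1 and 0.1, 371 without E16.5 replicate 2 and 8 to 16 without any other library. Precision is limited by 3 libraries a stage, and Lrrn4 rests on as few as 49 counts.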
